A study of Mus musculus with 10 samples.

Results

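Mouse embryonic stem cells on their way to neuromesodermal progenitors (NMPs) were compared at an early and a late point of 1 differentiation course. The early point was day 3 (D3) and the late point was day 7 after a last day with Gdf11 (D7G). With 2 libraries a group these are 4 of the 10 RNA-seq libraries of the series, chosen by their labels, and every gene that passed a filter on low counts was tested. The cells were wild type, of the line ES-Bruce4 (C57BL/6), had been kept on inactivated embryo fibroblast feeders that were depleted once, and differentiated in N2B27 medium. The protocol gives bFgf (10 ng/ml) at day 0, CHIR99021 (5 µM), which blocks Gsk3 and so turns on Wnt signalling, at day 2, a split of the dishes on day 3, and human Gdf11 (50 ng/ml) at day 6, for 24 h, in D7G only. The labels call D3, day 6 (D6), untreated day 7 (D7) and D7G all neuromesodermal progenitors and day 2 (D2) epiblast stem cells. They do not say whether the B27 supplement held vitamin A, or whether the libraries of a group were grown apart. P-values then reflect the scatter between these libraries alone, and that scatter may be technical. D7G and D3 differ in age, in the split and in Gdf11, and these cannot be told apart in this comparison. Values of untreated D7 (n = 2) are therefore given beside the results.

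In the embryo, the primitive streak is the strip of the posterior epiblast where cells leave to form mesoderm and endoderm, under Wnt, Nodal and Fgf signals, and T (Brachyury), Mixl1 and Wnt3a mark it. NMPs lie next to its end and later in the tail bud, carry T together with the neural factor Sox2, and supply both spinal cord and paraxial mesoderm. Gdf11, a secreted factor related to Tgf-β and myostatin, acts through Activin receptors and Smad2 and Smad3, and is known for the switch from trunk to tail and for the activation of posterior Hox genes.

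Libraries held 31078950 to 33418015 counts, mitochondrial genes took 1.86 to 2.48% of them, and replicates correlated at 0.995 or more across genes. The mean chi-square per gene between replicates, which is 1 for pure counting noise, was 2.15 in D3 and 4.25, the highest of the 5 groups, in D7G. Levels are in CPM, a gene's counts relative to all counts of its library, with library sizes scaled by TMM, the trimmed mean of M values. They compare 1 gene between samples, not different genes, since they are not divided by gene length. Differences are log2 fold changes of D7G minus D3 ± SE, from a fit in which all 5 groups share the estimate of the spread. RNA came from whole dishes, so fewer cells of a type and less RNA per cell cannot be told apart.

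Most of the transcriptome differed between D7G and D3. Of 18818 tested genes 11848 (63%) had an adjusted p under 0.05 and are called here, 5997 higher in D7G (31.9%) and 5851 lower (31.1%). By at least 2-fold, 1950 were higher (10.4%) and 1644 lower (8.74%). For 15186 genes (80.7%) the CPM of the 2 groups did not overlap, so a lack of overlap alone is the common case here. Between D7G and D7, 4241 genes were called higher (22.5%) and 3420 lower (18.2%). The counts of each gene group below are read against these shares.

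Over all genes, D7G was not nearer to D3 than untreated D7 was. The root mean square difference in log2 CPM was 0.959 to 0.992 between D7G and D3 libraries and 0.927 to 0.949 between D7 and D3 libraries, against 0.543 to 0.566 between D7G and D7 and 0.288 to 0.327 between replicates. By list medians, epithelial genes (-1.08 in D7G, -1.69 on D7), streak genes (-0.64 and -1.56) and contractile genes (-0.35 and -1.18) stood nearer to D3 in D7G than on D7. Mesenchymal genes (1.97 and 1.03), neuron markers (2.39 and 1.47) and Hox groups 10 to 13 (5.32 and 3.54) stood farther from it. Both differences share the D3 libraries.

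**Figure D1:**
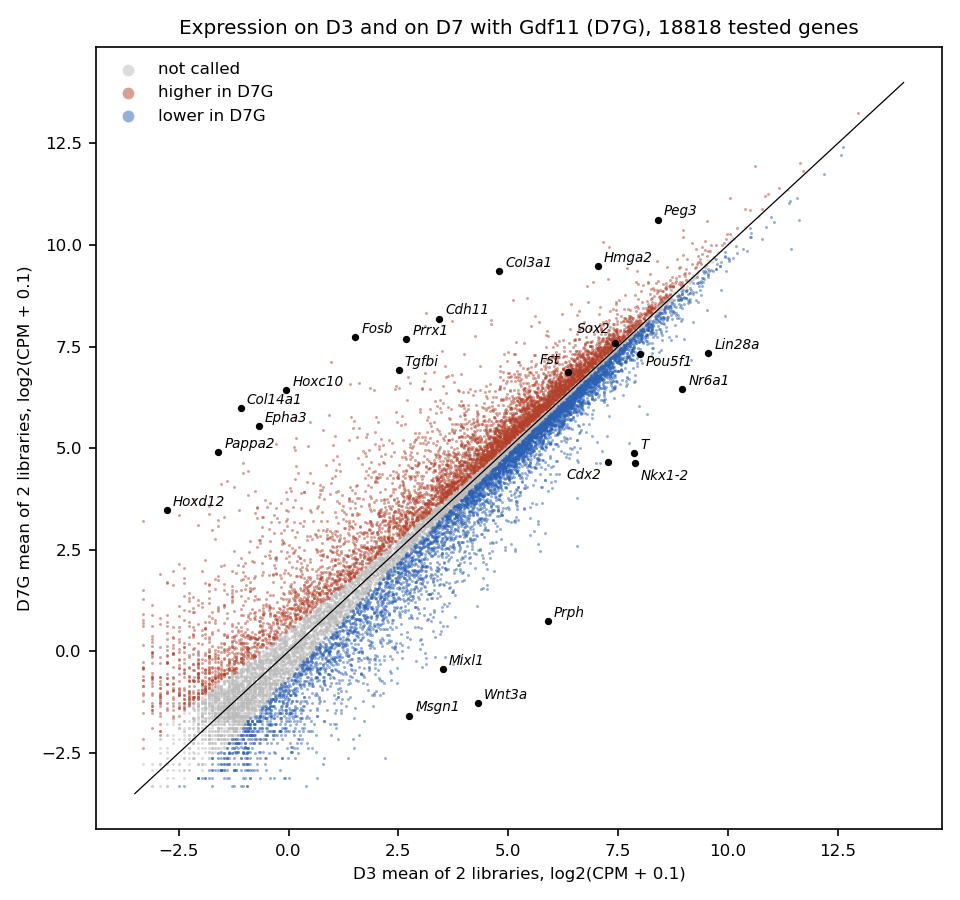
Mean CPM of the 2 D3 libraries (x axis) and of the 2 D7G libraries (y axis) for the 18818 tested genes, both as log2(CPM + 0.1), with called genes in colour and equality as a line. T, Nkx1-2 and Wnt3a lie below the line, Hoxc10 and Col14a1 far above it, and Sox2 and Fst close to it.

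The largest rises by the naming rule mixed posterior Hox genes with genes of the matrix and of signalling. Slc22a6, an organic anion transporter, had 0 counts in both D3 libraries and 586 counts over the 2 D7G libraries, at least 198-fold higher against a floor of 3 counts over the group. Col14a1, a fibril-associated collagen, held 0.306 and 0.432 CPM in the D3 libraries and 56.8 and 69.8 in D7G (7.41 ± 0.16, adjusted p = 2.57e-18). Pappa2, a protease of Igf-binding proteins, went from 0.276 and 0.185 to 27.4 and 32.7 CPM (7.0 ± 0.19). These genes were near 0 on D3 and their groups were far apart. Epha3, an ephrin receptor, rose by 6.47 ± 0.13, Lin7a, a scaffold protein of cell junctions, by 6.73 ± 0.28, the collagen gene Col26a1 by 6.22 ± 0.11 and Slitrk6, a neuronal transmembrane protein, by 6.01 ± 0.24. Efcc1 (5.99 ± 0.15) and Nepn (5.91 ± 0.28) completed the list beside Fosb, Bmp5, Hoxd12, Hoxc11, Hoxc10 and Hoxd11, which are described with their families. The largest falls were Wnt3a, Prph, Ltb, Msgn1, Plcxd1, Mixl1, Aplnr, Actn3, Ltbp2 and Dcn, followed by Padi2, Cpne7, Kremen2, Madcam1 and Wnt8a, with log2 fold changes from -5.96 to -3.28. Prph, the intermediate filament peripherin, held 63.1 and 56.1 CPM on D3 and 1.79 and 1.37 in D7G (-5.24 ± 0.11), and Aplnr, the apelin receptor of early mesoderm, 11.3 and 12.2 CPM on D3 and 0.752 and 0.871 in D7G (-3.85 ± 0.18). For Plcxd1 the fall was -4.23 ± 0.16 here and -2.16 in the second deposited count table.

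Genes of the primitive streak fell for the most part, but unequally, and a few stood at or above their D3 level. Of 11 tested streak genes 7 were lower and 4 higher (median -0.64, against -0.000253 over all genes), and Mesp1, a factor of nascent mesoderm, was not tested, with 4 counts over each group. T held 231 and 233 CPM in the D3 libraries and 29.1 and 29.4 in the D7G libraries, with 40.1 and 43.3 on D6 and 20.3 and 19.3 on D7. Every library of D6, D7 and D7G lay far below D3, and D7G was the higher of the day 7 groups (D7G minus D3 -2.98 ± 0.05, adjusted p = 8.00e-20, D7G minus D7 0.56 ± 0.06, adjusted p = 1.61e-07). Wnt3a, the Wnt ligand of the late streak and tail bud, held 19.4 and 19.9 CPM on D3 and 0.251 and 0.373 in D7G (-5.96 ± 0.19). Mixl1, a homeobox factor of the streak, held 10.2 and 12.3 CPM on D3 and 0.627 and 0.653 in D7G (-4.13 ± 0.20). Both were under 1 CPM in each D7G library. Fgf8, the Fgf ligand of the streak, fell (-2.45 ± 0.10) and was below untreated D7 as well (D7G minus D7 -0.89 ± 0.12, adjusted p = 3.60e-06), and the Wnt ligand Wnt3 fell too (-1.29 ± 0.12).

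Fst, Evx1 and Eomes, which the streak also expresses, had other courses. Fst, follistatin, an extracellular trap for Activin and Gdf11, held 85.4 and 79.9 CPM on D3, 16.6 and 14 on D6, 15.1 and 15 on D7 and 112 and 122 in D7G. Its D7G libraries were thus above D3 (0.50 ± 0.06, adjusted p = 3.72e-07) and far above D7 (2.96 ± 0.07, adjusted p = 1.83e-16). Evx1, an even-skipped homeobox factor of the posterior streak, held 20.7 and 21.7 CPM on D3, 4.16 and 3.46 on D7 and 13.1 and 15.7 in D7G, short of D3 (-0.56 ± 0.09) and above D7 (1.91 ± 0.11). Nodal, the Tgf-β family ligand of the streak, stood at 27.9 and 27.5 CPM on D3 and 18 and 17.5 in D7G (-0.64 ± 0.07), with 12 and 11.6 on D7. Eomes, a T-box factor of early mesendoderm, rose above D3 from 5.33 and 5 to 9.34 and 12 CPM (1.05 ± 0.14). Gsc, a factor of the anterior streak, rose by 2.26 ± 0.34 at levels of 0.368 and 0.247 CPM on D3 and 1.25 and 1.71 in D7G. Lhx1 (1.47 and 1.36 CPM on D3 and 2.82 and 1.59 in D7G, 0.64 ± 0.25, adjusted p = 0.0337) lost its call under 9 of the 14 alternative settings, with 0.11 and adjusted p = 0.764 without D7G replicate 1. By defining markers the D3 cells held T, Wnt3a, Mixl1 and Evx1, while Gsc and Mesp1 were near 0.

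**Figure D2:**
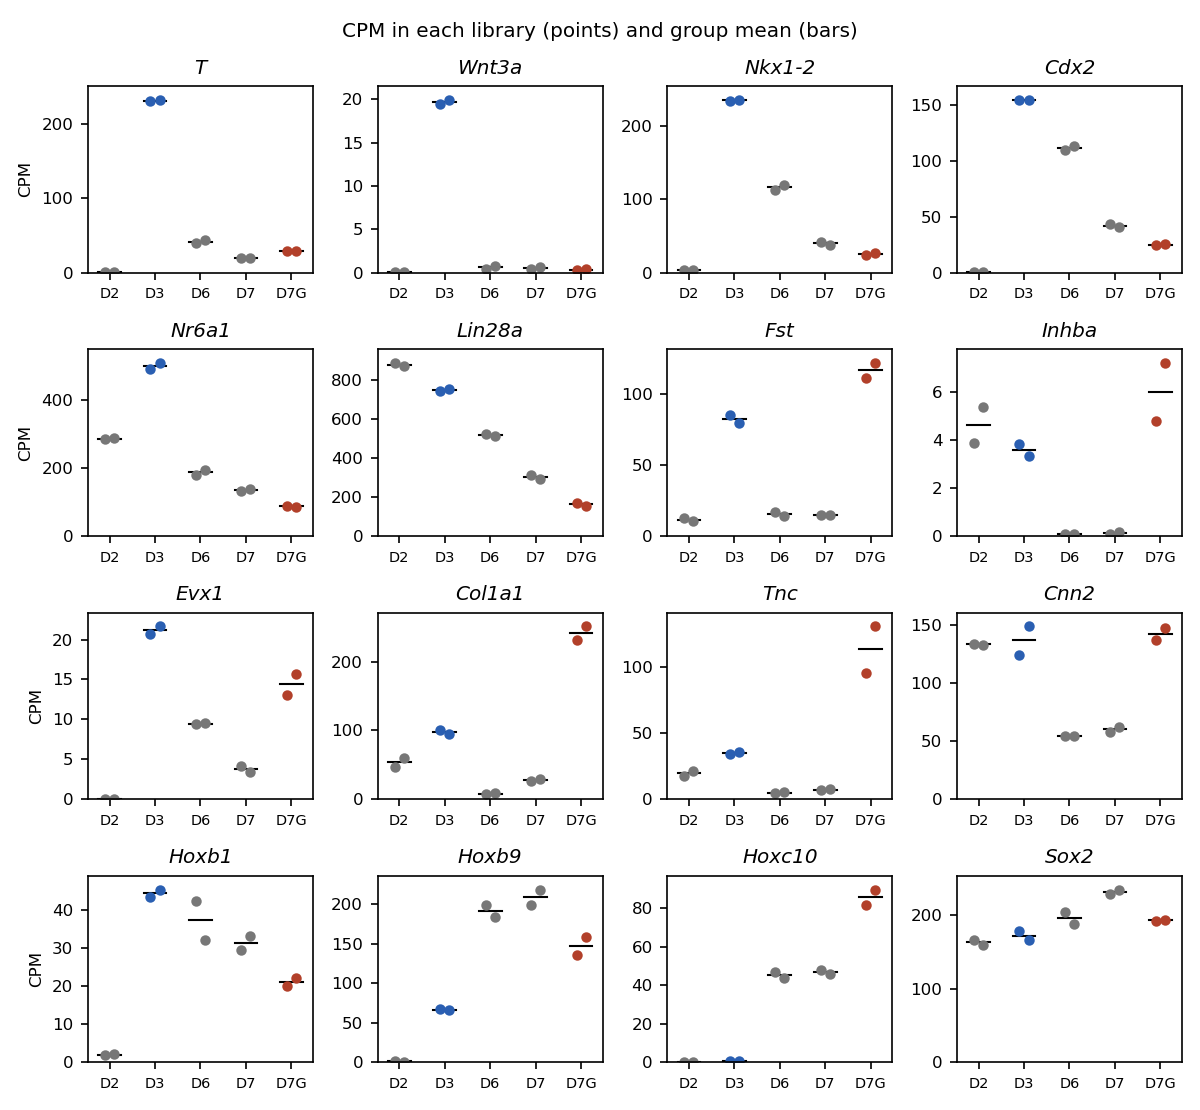
CPM of 16 named genes in each of the 10 libraries (points, 2 per group) with the group mean as a bar, on linear axes that start at 0. T, Wnt3a, Nkx1-2 and Cdx2 peaked on D3 and stayed low in D7G, Fst and Cnn2 were low on D7 and near or above D3 in D7G, Evx1 lay between D7 and D3, and Hoxc10 was highest in D7G.

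The NMP and caudal epiblast genes, the factors that hold cells in the progenitor state, were mostly below D3. Of 13 tested members 10 were lower, all 10 by at least 2-fold against 8.74% of all genes, and 2 were higher (median -1.81). Untreated D7 minus D3 had a median of -1.74. Between D7G and D7, 7 members were called lower and 4 higher. Nkx1-2, a homeobox factor of the caudal lateral epiblast, held 235 and 236 CPM on D3 and 23.4 and 26.2 in D7G (-3.25 ± 0.06, adjusted p = 1.05e-19). Cdx2, a caudal-type factor required for posterior growth, held 154 and 154 CPM on D3 and 24.7 and 25.3 in D7G (-2.62 ± 0.05). Cdx4 held 93.4 and 96 CPM on D3 and 13.1 and 13.9 in D7G (-2.81 ± 0.06). In each of these the D7G libraries were also below untreated D7, with D7G minus D7 at -0.68 ± 0.06, -0.75 ± 0.05 and -1.51 ± 0.06. Cdx1 fell from 151 and 155 to 38.6 and 39.9 CPM (-1.96 ± 0.06), and its difference between D7G and D7 was not called (0.11 ± 0.07, adjusted p = 0.223). Wnt8a, a Wnt ligand of the caudal epiblast, fell from 52.7 and 52.5 to 5.74 and 5.1 CPM (-3.28 ± 0.08), and Sp5, Wnt5b, Sp8, Fgf17 and Hes3 fell by 1.64, 1.81, 1.93, 1.22 and 1.44 on the log2 scale. Hes3, a repressor of the progenitor zone, was the one among them that untreated cells held above D3 (3.71 and 3.67 CPM on D3, 8.08 and 9.21 on D7, 1.44 and 1.27 in D7G).

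The exceptions were Cyp26a1, Greb1 and Epha5. Cyp26a1, the enzyme that clears retinoic acid from the tail bud, rose from 19.4 and 20.6 to 40.5 and 31.5 CPM (0.85 ± 0.09). Greb1 rose from 88.2 and 84.1 to 123 and 131 (0.56 ± 0.05). Epha5 stood at 3.89 and 3.33 CPM on D3 and 3.42 and 3.89 in D7G (0.02 ± 0.14, adjusted p = 0.926), after 30.9 and 30.4 on D6. Evx2 was not tested, with 3 counts over D3 and 4 over D7G.

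Of the pair that defines NMPs, T fell while Sox2 changed little. Sox2 held 178 and 166 CPM on D3 and 192 and 193 in D7G, groups that do not overlap (0.17 ± 0.04, adjusted p = 0.00272), but the call was lost with upper-quartile scaling and without D3 replicate 2, D7G replicate 1 or D7G replicate 2 (0.07 to 0.17 over all settings, adjusted p up to 0.308). Untreated D7 was higher, at 229 and 235 CPM (D7G minus D7 -0.27 ± 0.04). Pou5f1 (Oct4), a core pluripotency factor also present in the early caudal epiblast, held 259.7 and 251 CPM on D3 and 172 and 149.7 in D7G (-0.67 ± 0.06), above D7 (0.33 ± 0.07).

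CHIR99021 was given from day 2, and several of the genes that fell are known Wnt targets, so their promoters were read for the Tcf/Lef core motif. The motif searched was CTTTGAT or CTTTGAA on either strand, in the 300 bases from 250 before to 50 after each RefSeq start site (GRCm38.p6, the mm10 build). It occurs in 8.65% of all 32851 such promoters. The streak and NMP lists together hold 26 genes, of which 19 have an entry, with 24 promoters. The motif is in 6 of these 24 promoters, each of a different gene (T, Sp5, Wnt5b, Sp8, Mesp1 and Greb1). Of the 12 Wnt feedback genes 7 have an entry, with 12 promoters, and it is in 1, that of Dkk1. The stretches below show the motif in capitals, 5′ to 3′ on the gene's strand, for 4 genes that fell and for Dkk1, which rose, because the same letters occur in both.
T, chr17:8434173-8434239, + strand: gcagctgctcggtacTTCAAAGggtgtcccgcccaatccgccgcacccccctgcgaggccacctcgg
Sp5, chr2:70474774-70474870, + strand: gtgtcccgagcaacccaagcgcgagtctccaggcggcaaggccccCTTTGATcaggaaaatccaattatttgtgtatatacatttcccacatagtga
Wnt5b, chr6:119449406-119449502, - strand: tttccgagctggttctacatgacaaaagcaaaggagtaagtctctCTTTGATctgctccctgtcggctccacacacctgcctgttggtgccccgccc
Sp8, chr12:118847137-118847233, + strand: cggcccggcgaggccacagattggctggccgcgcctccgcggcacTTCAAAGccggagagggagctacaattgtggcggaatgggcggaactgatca
Dkk1, chr19:30549562-30549658, - strand: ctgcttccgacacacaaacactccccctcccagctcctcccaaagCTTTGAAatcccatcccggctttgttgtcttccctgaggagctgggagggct
A match describes these letters only and shows no binding, and no match says nothing about a factor.

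Wnt feedback genes, which cells switch on when β-catenin is active, rose while the Wnt ligands of the streak fell. Of 12 tested members 9 were higher and 1 lower (median 0.71). Apcdd1, an inhibitor of Wnt receptors, held 10.3 and 9.25 CPM on D3, 24.8 and 21.5 on D7 and 107 and 126 in D7G (3.57 ± 0.09). Nkd2 and Nkd1, inhibitors of Dishevelled, rose by 2.67 ± 0.06 and 2.49 ± 0.07, and Notum, an enzyme that inactivates Wnt ligands, by 2.18 ± 0.07. In these genes D7G was above D7 as well, by 2.33 for Apcdd1, 1.63 for Nkd2, 0.98 for Nkd1 and 0.56 for Notum. Axin2, the feedback scaffold of the β-catenin destruction complex, moved little: 155 and 169.6 CPM on D3 and 200.5 and 238 in D7G (0.43 ± 0.06, or 0.26 without D7G replicate 2). Dkk1, a secreted inhibitor of Lrp coreceptors, rose from 9.65 and 10.5 to 16.5 and 14.6 CPM (0.62 ± 0.12). Tcf7, a factor that carries β-catenin to these genes, fell (-0.42 ± 0.04) and Lef1, of the same family, rose (0.29 ± 0.06). Znrf3 (-0.03 ± 0.05, adjusted p = 0.617) and Rnf43 (-0.05 ± 0.11, adjusted p = 0.712), both ligases that remove Wnt receptors, were not called.

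Among paraxial mesoderm genes, presomitic genes went both ways, with more lower than higher, and most somite genes were higher than on D3. Of 11 tested presomitic genes 6 were lower and 4 higher (median -0.80), with 5 to 7 lower and 4 higher over the alternatives. Mesp2 (-0.80), one of those lower, lost its call under DESeq2 and with only these 4 libraries in the fit, among others. Msgn1, a master factor of the early presomitic mesoderm, fell from 6.13 and 7.09 to 0.219 and 0.249 CPM (-4.80 ± 0.28). Hes7, the segmentation clock repressor, fell from 3.19 and 3.21 to 0.219 and 0.187 CPM (-3.95 ± 0.30). Tbx6, the T-box factor that turns NMPs to mesoderm, fell from 4.6 and 5.27 to 1.22 and 0.964 CPM (-2.17 ± 0.26, adjusted p = 3.02e-07). All 3 were low on untreated D7 too (mean 0.0751 CPM for Msgn1, 0.705 for Hes7 and 1.07 for Tbx6). Pcdh8, a protocadherin of the anterior presomitic mesoderm, rose from 1.26 and 1.33 to 20.7 and 20.7 CPM (4.00 ± 0.13), and the Notch modifier Lfng by 1.62 ± 0.10 and the Notch ligand Dll1 by 1.13 ± 0.05. Dll3 was not called (-0.19 ± 0.09, adjusted p = 0.0761), and Ripply2 was not tested (2 and 0 counts over the groups).

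Of 13 tested somite genes 11 were higher and 0 lower (median 1.71, or 1 lower with upper-quartile scaling or with only these 4 libraries in the fit). Pax3, a paired-box factor of the dermomyotome and dorsal neural tube, held 7.72 and 8.02 CPM on D3 and 62.5 and 62.5 in D7G (2.99 ± 0.09). Meox1, a homeobox factor of somites, held 0.245 and 0.308 CPM on D3, 48.6 and 37.7 on D6, 13.9 and 13.5 on D7 and 2.19 and 2.92 in D7G. Foxc2 held 0.0919 and 0.247 CPM on D3, 10.6 and 8.17 on D6, 6.01 and 5.24 on D7 and 1.22 and 1.87 in D7G. Both were therefore above D3 in D7G (3.19 ± 0.34 and 3.16 ± 0.43) and below their D6 and D7 levels (D7G minus D7 -2.42 ± 0.15 and -1.86 ± 0.21). Meox2 had 2 counts over D3 and 96 over D7G, a ratio of 48.8 (95% interval 13.1 to 408, exact, counting error only). Its fitted value of 5.44 ± 0.62 became 8.54 without D3 replicate 1. Pax1 (0.38 ± 0.36, adjusted p = 0.371) and Ripply1 (-1.02 ± 0.47, adjusted p = 0.068) were not called.

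The Hox genes, which encode position along the body axis in the order of their paralogue groups, were higher in D7G nearly throughout. All 39 were tested, and 36 were higher, 2 lower and 1 not called. The median rise grew from the anterior to the posterior groups. It did so in untreated D7 as well, with D7 minus D3 medians of 1.34, 1.7 and 3.54 for groups 1 to 4, 5 to 9 and 10 to 13. In groups 1 to 4, 10 of 12 were higher and 2 lower (median 1.3). Against D7, 0 of these 12 were called higher and 5 lower, where 22.5% of all genes were higher and 18.2% lower. Hoxb1, expressed early and anteriorly, held 43.3 and 45.3 CPM on D3 and 20.1 and 22.1 in D7G (-1.07 ± 0.10). It was also below D7 (D7G minus D7 -0.57 ± 0.10). Rises ran from 0.31 ± 0.07 for Hoxb2 (0.83 in the second count table) through 0.89 ± 0.08 for Hoxb4 and 1.71 ± 0.07 for Hoxb3 to 1.86 ± 0.14 for Hoxd4, 2.45 ± 0.07 for Hoxc4 and 4.04 ± 0.18 for Hoxd3.

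In the trunk groups 5 to 9 all 15 were higher, 14 by at least 2-fold against 10.4% of all genes (median 2.17). Against D7, 10 of the 15 were called higher and 2 lower. Hoxa6 went from 0.214 and 0.247 to 7.96 and 10.5 CPM (5.30 ± 0.26), and Hoxc9 from 3.46 and 2.84 to 28.4 and 32.1 (3.26 ± 0.14). Hoxb9 stood at 67.2 and 66.5 CPM on D3, 199 and 219 on D7 and 136 and 159 in D7G (1.14 ± 0.06), so its D7G libraries lay between D3 and D7. Rises of 2 or more were also seen in Hoxc6 (2.83), Hoxa9 (2.42), Hoxa5 (2.34), Hoxc5 (2.34), Hoxd8 (2.25), Hoxd9 (2.17) and Hoxa7 (2.02) on the log2 scale. Smaller ones were those of Hoxb5 (1.57), Hoxb7 (1.32), Hoxb6 (1.31) and Hoxc8 (1.06). Hoxb8, whose groups overlap at 29.3 and 32.8 CPM on D3 and 32.5 and 37.2 in D7G (0.17 ± 0.07, adjusted p = 0.0462), lost its call under 11 of 14 alternative settings, with adjusted p up to 0.845.

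In groups 10 to 13, which pattern the lumbosacral and tail regions, 11 of 12 were higher (median 5.32, or 4.99 with Hoxc12 at its bound), and in D7G all 12 were also above D7, where 22.5% of all genes were called higher. Hoxc10, of the lumbar region, held 0.889 and 0.833 CPM on D3, 48.2 and 45.7 on D7 and 81.9 and 89.8 in D7G (6.63 ± 0.11, adjusted p = 8.00e-20). Hoxd11 held 0.337 and 0.154 CPM on D3, 4.37 and 3.88 on D7 and 17.5 and 17 in D7G (6.11 ± 0.21). Hoxc11 held 0.0919 and 0.0617 on D3 and 9.31 and 11 in D7G (6.97 ± 0.28). These genes were all but silent on D3 and no library of one group came near the other. Hoxd12 had 3 counts over D3 and 706 over D7G, a ratio of 239 (95% interval 81.5 to 1160), and Hoxc12 had 0 and 92, at least 31.1-fold higher. Rises were also found for Hoxd10 (5.63 ± 0.19), Hoxa13 (5.02 ± 0.38), Hoxa10 (4.07 ± 0.09), Hoxa11 (3.92 ± 0.16) and Hoxd13 (2.64 ± 0.14). Hoxb13 stood at 1.16 and 1.05 CPM on D3 and 1.6 and 1.65 in D7G (0.55 ± 0.23, adjusted p = 0.0454), a call lost under 11 of 14 alternatives. Hoxc13 was level with D3, at 5.02 and 4.1 CPM on D3 and 5.08 and 4.26 in D7G (0.03 ± 0.16, adjusted p = 0.87), and lower on D7 at 2.42 and 2.68. Whether counting used strand is not given in the sources used here, so reads of antisense or overlapping Hox transcripts, as between Hoxd3 and Hoxd4, may be counted for a neighbour.

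**Figure D3:**
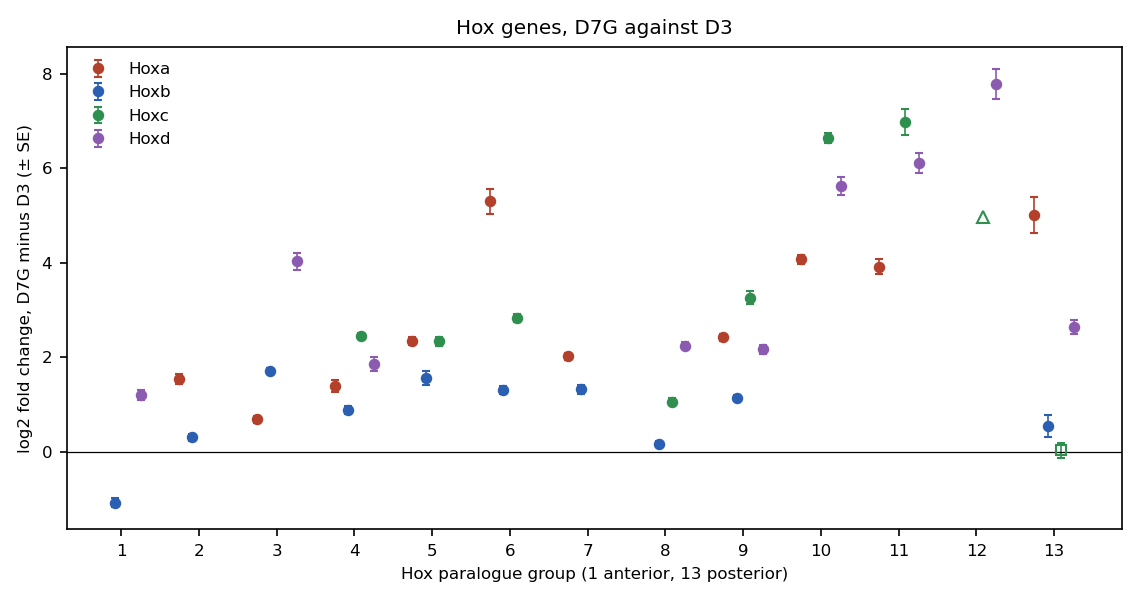
Log2 fold change of D7G minus D3 (y axis, ± SE) of Hox genes by paralogue group (x axis) and cluster (colour). The open square is Hoxc13, which was not called, and the open triangle is the lower bound for Hoxc12. Hoxb1 lies below 0, and the genes above 5 are Hoxa6, Hoxc10, Hoxd10, Hoxc11, Hoxd11, Hoxd12 and Hoxa13.

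Nr6a1 and the Lin28 genes, which mark early axial progenitors, fell, though the let-7 targets as a list did not move in 1 direction against D3. Lin28a and Lin28b are RNA-binding proteins that block the maturation of let-7 miRNAs, and Nr6a1 is an orphan nuclear receptor known for its part in trunk elongation. Nr6a1 held 489.5 and 508 CPM on D3 and 89.4 and 85.6 in D7G (-2.51 ± 0.04, adjusted p = 1.05e-19), with 180.4 and 193 on D6 and 132 and 139 on D7. Lin28a held 745 and 755 CPM on D3, 525 and 513 on D6, 312 and 291 on D7 and 169.7 and 154 in D7G (-2.21 ± 0.04). Both were below D7 in D7G (D7G minus D7 -0.63 ± 0.04 and -0.90 ± 0.04). Trim71 fell by 1.21, Lin28b by 0.76 and Igf2bp1, an mRNA-binding protein, by 0.53. Against this, Hmga2, a chromatin protein and known let-7 target, rose from 129 and 133 to 680.4 and 748 CPM (2.45 ± 0.05), and Igf2bp2 by 0.92 ± 0.05. Hmga2 already held 635 and 585 CPM on D6 and 506 and 478 on untreated D7. Over the 11 members 7 were lower and 4 higher (median -0.31). Against D7, 10 of the 11 were called lower and 1 higher (median -0.418).

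let-7 and the Hox-cluster miRNA miR-196 share most of their seed (bases 2 to 8, in capitals), so a single site can match both. Their mature sequences are printed because Nr6a1, Lin28a and Hmga2 hold such sites but moved in different directions.
mmu-let-7a-5p: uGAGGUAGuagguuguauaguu
mmu-miR-196a-5p: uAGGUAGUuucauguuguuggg
mmu-miR-196b-5p: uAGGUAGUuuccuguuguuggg
The match to the let-7 seed is CTACCTC and that to the miR-196 seed is ACTACCT, and the 8 bases ACTACCTC hold both. Sites were read in the longest annotated sequence after the stop codon (GENCODE vM21, mm10). In Nr6a1 it is 4457 bases long with 8 let-7 matches, 4 miR-196 matches and 3 shared ones. In Hmga2 it is 3014 bases long with 4 let-7 matches, 3 of them shared, and in Lin28a 2775 bases long with 2, 1 of them shared. Of 3254 such sequences of 2500 to 4500 bases, 18.8% hold a let-7 match, 0.4% at least 3, and 4% a shared one. A shared site of each gene is shown on its strand, with the match in capitals.
Nr6a1, chr2:38727444-38727471, - strand: tgttgacaaagacaACTACCTCaatgga
Lin28a, chr4:134005184-134005211, - strand: gcacagcctgttgaACTACCTCattttt
Hmga2, chr10:120362982-120363009, - strand: ccccactcctcaatACTACCTCtgaatg
Mature miRNAs were not measured here. Reads over the Mir196a-1 locus, between Hoxb9 and Hoxb13, rose from 48 and 40 counts on D3 to 78 and 81 in D7G (0.87 ± 0.20, adjusted p = 9.29e-04). On D6 the locus had 53 and 74 counts, and on untreated D7 83 and 78. Reads over Mir196a-2 and Mir196b were 0 to 2 in every library.

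Genes of the Tgf-β family, to which Gdf11 belongs, were divided. The Activin subunits Inhba and Inhbb, low on D6 and D7, stood above D3 in D7G, and the feedback inhibitors Pmepa1 and Smad7 rose above both D3 and D7, whereas Lefty1, Gdf3 and Tgfb1 stayed below D3. Of 10 tested ligands and antagonists 6 were higher and 4 lower (median 0.79), and 9 were above D7 and 1 below. Inhba, the Activin A subunit, held 3.8 and 3.3 CPM on D3, 0.0644 and 0.0968 on D6, 0.0898 and 0.151 on D7 and 4.77 and 7.18 in D7G. Its level in D7G was above D3 (0.75 ± 0.18, adjusted p = 0.00135, or 0.38 and adjusted p = 0.102 without D7G replicate 2) and far above D7 (5.59 ± 0.36). Inhbb, the Activin B subunit, held 3.06 and 2.5 CPM on D3, 0.193 and 0.291 on D6, 0.957 and 0.813 on D7 and 4.64 and 5.85 in D7G (0.91 ± 0.16). Tgfb2 rose by 2.22 ± 0.10 and Lefty2, a feedback inhibitor of Nodal, from 25.6 and 23.4 to 73.2 and 68.3 CPM (1.53 ± 0.07). Lefty1 stopped short of D3 (81.3 and 72 CPM on D3 and 57 and 57.1 in D7G, with 28.2 and 27.1 on D7), as did Gdf3 (-1.09 ± 0.08) and Tgfb1 (-1.18 ± 0.15). The cells' own Gdf11 transcript held 22.9 and 22.3 CPM on D3 and 41.4 and 44.3 in D7G (0.93 ± 0.07), below D7 (D7G minus D7 -0.28 ± 0.06). Mstn and Gdf1 had 0 counts in both groups, which allows up to 3 counts over a group, and Cer1 had 1 in each.

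Among 10 tested receptors and Smads 6 were higher and 1 lower (median 0.26). Smad3, a transducer of Activin and Gdf11 signals, rose from 54.8 and 58.3 to 137 and 145 CPM (1.32 ± 0.04) and Tgfbr2, the type II Tgf-β receptor, from 9.41 and 10.4 to 24.6 and 23.9 (1.29 ± 0.09). The type I receptor Tgfbr1, used by Gdf11, and the type II receptor Acvr2a rose by 0.62 ± 0.05 and 0.84 ± 0.06, and the coreceptor Tgfbr3 fell (-0.64 ± 0.08). Not called were Acvr1b (0.06 ± 0.06, adjusted p = 0.362), Smad4 (0.01 ± 0.04, adjusted p = 0.804) and Acvr2b (-0.04 ± 0.05, adjusted p = 0.506), and Acvr1c was not tested (8 and 4 counts).

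Of the 12 targets and feedback genes 8 were higher and 3 lower (median 1.05). Tgfbi, a matrix protein induced by Tgf-β, held 5.97 and 5.18 CPM on D3, 74.4 and 78.7 on D7 and 112 and 129.8 in D7G (4.44 ± 0.09). Pmepa1, a negative feedback protein, held 10 and 10.5 CPM on D3, 9.1 and 9.45 on D7 and 43.9 and 44 in D7G (2.09 ± 0.07). The inhibitory Smad7 held 17.4 and 17 CPM on D3, 21.2 and 19.1 on D7 and 49.6 and 51.7 in D7G (1.56 ± 0.07). In Pmepa1 and Smad7, D3 and D7 lay within a few CPM of each other and D7G stood apart from both. Ltbp1, which stores latent Tgf-β, rose by 1.66 ± 0.05, while Gadd45b, a stress-response gene that Tgf-β induces, stayed below D3 (-0.78 ± 0.09) although above D7 by 0.99. Ski was not called (0.06 ± 0.04, adjusted p = 0.227).

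Most Bmp ligands and antagonists, and most Bmp targets, were above D3. Of 10 ligands and antagonists 7 were higher and 1 lower (median 1.16). Bmp5 held 0.184 and 0.185 CPM on D3, 9.87 and 7.71 on D7 and 11.3 and 12.4 in D7G (5.97 ± 0.23). Bmp4, a ligand of posterior and ventral mesoderm, held 4.93 and 5.68 CPM on D3, 18.5 and 17 on D7 and 53.1 and 64.9 in D7G (3.48 ± 0.10). The antagonist Nog rose by 2.86 ± 0.16 and Grem1 fell by 1.71. Bmp7 (-0.12 ± 0.06, adjusted p = 0.0625) and Bmp6 (-0.21 ± 0.11, adjusted p = 0.0875) were not called, but Bmp7 was called lower under 8 and Bmp6 under 4 of the 14 alternatives, so that 2 members were lower without D3 replicate 1 and 3 without D7G replicate 1. Of 8 Bmp targets 7 were higher (median 1.76). Id2, an inhibitor of basic helix-loop-helix factors, held 11 and 11.2 CPM on D3, 139 and 124 on D7 and 154 and 182 in D7G (3.92 ± 0.09). Msx1 rose by 2.25 ± 0.07, Id1 by 2.11 ± 0.08 and Msx2 by 1.83 ± 0.11, and Smad9 was not called (-0.10 ± 0.36, adjusted p = 0.82).

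Fgf-Erk feedback genes, a readout of Fgf signalling, went both ways by small steps. Of 11 members 3 were higher, 5 lower and 3 not called (median -0.03), and none differed by 2-fold. Il17rd, a feedback inhibitor of Fgf receptors, held 345 and 331 CPM on D3, 166 and 151 on D7 and 311 and 353 in D7G (-0.03 ± 0.05, adjusted p = 0.675). Spry2 (0.03 ± 0.05, adjusted p = 0.664) and Spry4 (0.01 ± 0.06, adjusted p = 0.927), 2 further inhibitors, were also not called, and all 3 were above D7. Spry1 rose by 0.97 ± 0.07 and Etv1 by 0.67 ± 0.09, whereas Etv4, an Ets factor downstream of Fgf, and Dusp4, an Erk phosphatase, fell by 0.64 and 0.57.

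In the retinoic acid pathway 8 of 10 were higher and 2 lower (median 0.66). Rarb, a receptor that is itself induced by retinoic acid, rose from 4.23 and 3.55 to 19 and 19.7 CPM (2.31 ± 0.11), Cyp26b1, a clearing enzyme, by 2.45 ± 0.27 and Stra6, a retinol transporter, by 1.47 ± 0.05. Rarg, the receptor of the caudal epiblast, fell from 99.6 and 99 to 41.1 and 43.7 CPM (-1.23 ± 0.05). Crabp2, a retinoic acid carrier, held 87.8 and 84.5 CPM on D3, 449 and 467 on D7 and 124 and 123 in D7G, much nearer to D3 than to D7 (D7G minus D7 -1.89 ± 0.05). Cyp26c1 was not tested (5 and 0 counts). In the Notch pathway 12 of 13 were higher (median 1.17), led by the effectors Heyl (2.71 ± 0.21), Hey2 (2.68 ± 0.14) and Hes5 (2.56 ± 0.12), and the ligand Jag2 fell (-1.80 ± 0.06).

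Epithelial genes lay between D7 and D3. All 13 were lower in D7G than on D3 (median -1.08, against 31.1% of all genes called lower), and 12 of the 13 were above D7, where 22.5% of all genes were called higher. Cdh1, E-cadherin, held 437 and 472 CPM on D3, 116 and 132 on D6, 139.8 and 139 on D7 and 238 and 192 in D7G (-1.08 ± 0.07). Epcam held 164 and 177 CPM on D3, 51.2 and 60.6 on D6, 64.6 and 67.5 on D7 and 99.2 and 81.9 in D7G (-0.91 ± 0.07). Esrp1, a regulator of epithelial splicing, held 66.5 and 68.2 CPM on D3, 10.5 and 12.2 on D6, 13.5 and 14.7 on D7 and 20 and 16.3 in D7G (-1.89 ± 0.07). In these 3 genes D7G libraries lay above D7 and below D3 without overlap. Grhl2, an epithelial transcription factor, fell the most (-2.06 ± 0.10), followed by the tight-junction claudins Cldn3 (-1.95 ± 0.11) and Cldn4 (-1.95 ± 0.06), and the keratin Krt18 the least (-0.24 ± 0.10, adjusted p = 0.0349), with its call lost under 6 alternatives, such as -0.04 without D3 replicate 2.

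Mesenchymal genes lay beyond D3 in the other direction. Of 11 members 10 were higher and 0 lower (median 1.97). Prrx1, a homeobox factor of limb and axial mesenchyme, held 6.8 and 5.8 CPM on D3, 50.8 and 47 on D7 and 193 and 219.6 in D7G (5.03 ± 0.09). Cdh11, a mesenchymal cadherin, held 9.68 and 11.5 CPM on D3, 86 and 74.3 on D7 and 259 and 325 in D7G (4.78 ± 0.10). Twist2 rose by 4.49 ± 0.18 and Twist1 by 4.05 ± 0.10, both basic helix-loop-helix factors of mesenchyme. Fn1, fibronectin, was level with D3 at 1106 and 1141 CPM on D3 and 1125 and 1136 in D7G (0.01 ± 0.05, adjusted p = 0.88), with 748 and 779.6 on D7.

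The embryo fibroblast markers, listed because the stem cells came off feeders, did not move as 1 group. Of 9 tested markers 7 were higher and 2 lower (median 1.38), and S100a4 was not tested (9 and 1 counts over the groups). Their summed level was 203 to 226 CPM on D3, 257 on D7 and 424 to 433 in D7G. Lum rose by 4.94 ± 0.25, Fap by 3.50 ± 0.21 and Pdgfrb by 2.11 ± 0.09, while Dcn, decorin, fell from 7.6 and 8.61 to 0.658 and 0.684 CPM (-3.59 ± 0.24) and Thy1 from 8.15 and 7.43 to 1.13 and 1.09 (-2.81 ± 0.16). Their part in the mesenchymal and matrix results was not tested.

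Collagens and lysyl oxidases were mostly above D3, with Lox, Loxl4, Col5a2 and Col1a2 below it. Of 15 members 11 were higher and 4 lower (median 1.40), and 14 were above D7. Col3a1 held 27.1 and 27.9 CPM on D3, 272 and 251 on D7 and 598 and 719 in D7G (4.58 ± 0.09). Col1a1, the main fibrillar collagen of connective tissue, held 101 and 95.5 CPM on D3, 7.31 and 9.04 on D6, 25.9 and 28.7 on D7 and 231 and 252 in D7G (1.3 ± 0.07). Its partner chain Col1a2 followed the same course and ended just under D3 (109 and 106 CPM on D3 and 84.6 and 88.8 in D7G, -0.31 ± 0.07). Col6a1 rose by 2.91 ± 0.09 and Loxl2 by 2.43 ± 0.06. Lox, the founding lysyl oxidase, held 36.2 and 34.8 CPM on D3, 1.5 and 0.933 on D7 and 4.77 and 6.19 in D7G (-2.69 ± 0.13), and Loxl4 (-3.25 ± 0.23) and Col5a2 (-2.44 ± 0.10) also stayed far below D3. Of 12 matricellular genes 9 were higher and 3 lower (median 0.79). Tnc, tenascin C, held 34.1 and 35.4 CPM on D3, 6.64 and 7.71 on D7 and 95.6 and 130.4 in D7G (1.70 ± 0.10), and Thbs1, thrombospondin, 143 and 158 CPM on D3, 44.6 and 49.1 on D7 and 260.2 and 298 in D7G (0.89 ± 0.07). Sparcl1 rose by 4.71 ± 0.11, Fbn2, a fibrillin of embryonic microfibrils, by 3.46 ± 0.07 and Spon1 by 3.02 ± 0.14, and Postn fell (-1.14 ± 0.10).

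Contractile genes of smooth muscle were mostly above D7 and, by smaller steps, below D3. Of 11 members 9 were above D7. Against D3, 3 were higher, 7 lower and 1 not called (median -0.35, while D7 minus D3 had a median of -1.18). Over the alternatives 2 to 3 were higher and 6 to 7 lower. Myl9 (0.24, or 0.03 to 0.34 over the alternatives) lost its call under DESeq2, among others, and Tagln (-0.24) in the second count table. Cnn2, a calponin, held 125 and 149 CPM on D3, 58.3 and 62.7 on D7 and 138 and 148 in D7G (0.06 ± 0.06, adjusted p = 0.393). Tpm1, a tropomyosin, held 599 and 706 CPM on D3, 229 and 246 on D7 and 512 and 513 in D7G (-0.35 ± 0.05). Acta2, smooth-muscle actin, went beyond D3, at 51.3 and 51.1 CPM on D3, 39 and 43 on D7 and 109 and 112 in D7G (1.11 ± 0.07). Cnn1 (-1.40 ± 0.12), Lmod1 (-1.02 ± 0.22) and Actg2 (-0.88 ± 0.23) stayed below.

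**Figure D4:**
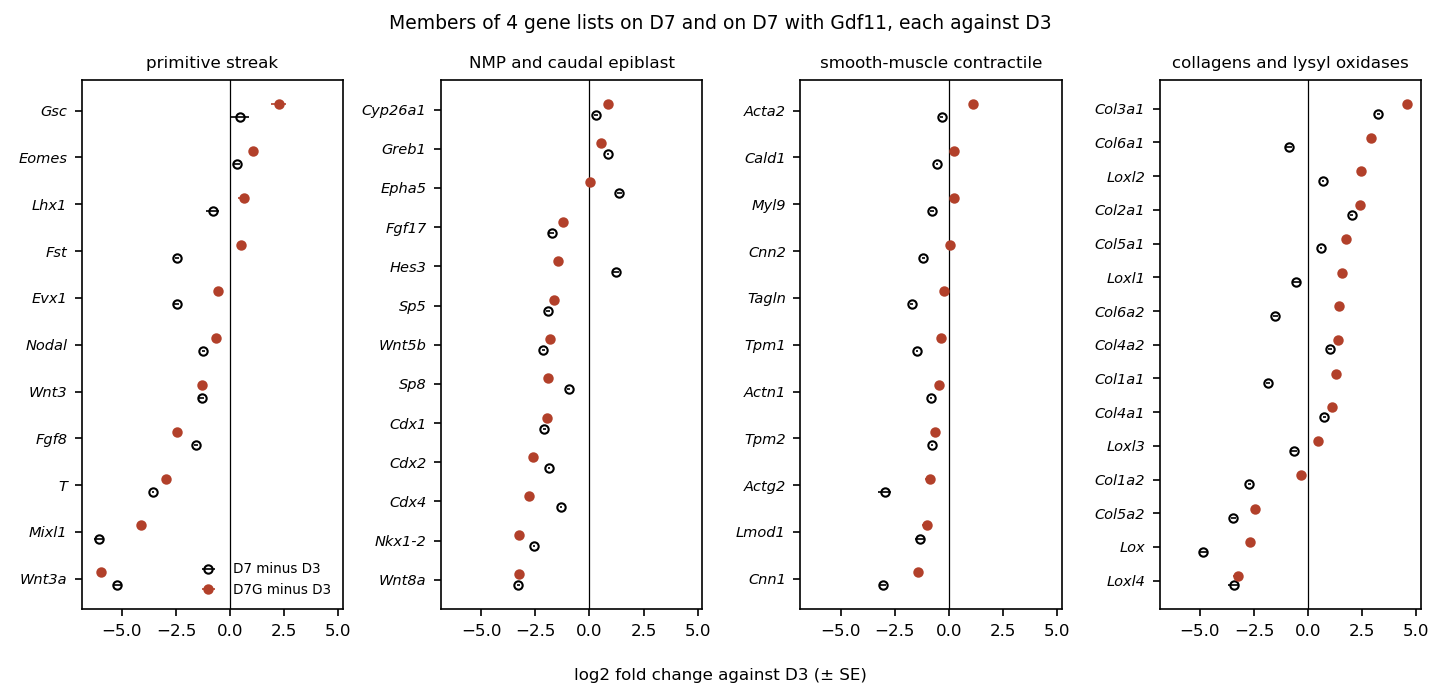
Log2 fold change against D3 (x axis, ± SE) of the tested members of 4 lists, for D7G (filled) and for untreated D7 (open), which share the D3 libraries. Cnn2 and Col1a2 are near 0 in D7G and far below it on D7, Fst is above 0 and Evx1 below it, whereas Nkx1-2, Cdx2 and Wnt3a are low in both.

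In D7G 17 of the 18818 tested genes were level with D3 (under 0.2 on the log2 scale) and had been at least 4-fold lower on D6. Predicted and clone names were left out of this count. Anxa2, Anxa1, Col8a1 and Wnt7b were among the most abundant of the 17. All were chosen by these values, which are given as a description. How many genes were at least 4-fold lower on D6 is not given, so the 17 cannot be read as a share of them. Anxa2, an annexin of the cell cortex, held 44 and 47.6 CPM on D3, 10.4 and 12.2 on D6, 18.5 and 18.4 on D7 and 46.1 and 40.9 in D7G. Anxa1 held 23.4 and 25.9 CPM on D3, 5.79 and 6.2 on D6, 8.71 and 9.09 on D7 and 23.6 and 31.7 in D7G. Col8a1, a short-chain collagen, and the ligand Wnt7b had the same order. In these 4 genes the D3 and D7G libraries overlapped or nearly met, with every D6 and D7 library below them.

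Spinal cord progenitor genes were mostly above D3. Of 13 tested genes 10 were higher and 3 lower (median 1.75). Pax7, of the dorsal spinal cord, held 2.51 and 1.73 CPM on D3, 41.9 and 44.1 on D7 and 22.8 and 26.2 in D7G (3.53 ± 0.13). Olig3, of dorsal interneuron progenitors, held 0.919 and 0.648 CPM on D3, 3.77 and 4.43 on D7 and 13.4 and 11.5 in D7G (3.98 ± 0.17). Sox1, a neural determination factor, held 27.4 and 27.3 CPM on D3, 64.3 and 60.9 on D7 and 38.8 and 39.2 in D7G (0.51 ± 0.07), so that D7G lay between D3 and D7 (D7G minus D7 -0.68 ± 0.06). Msx3 rose by 2.69 ± 0.11 and Pax6 by 2.26 ± 0.12, while Olig2, of motor neuron progenitors (-1.16 ± 0.09), and the ventral factor Nkx6-2 (-2.83 ± 0.29) and Dbx2 (-2.60 ± 0.53) fell. Dbx1 had 1 count over D3 and 22 over D7G, a ratio of 22.3 (95% interval 3.61 to 922), and Nkx2-2 had 14 and 7.

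Among 14 neuron markers 10 were higher and 3 lower (median 2.39), with a summed level of 188 to 193 CPM on D3, 203 to 205 on D7 and 356 in both D7G libraries. Neurod4, a proneural factor, held 0.184 and 0.339 CPM on D3 and 9.34 and 10.1 in D7G (5.20 ± 0.21), and Neurog2 0.582 and 0.679 CPM on D3 and 8.78 and 7.18 in D7G (3.65 ± 0.20). Dcx, a microtubule protein of young neurons, held 2.85 and 2.93 CPM on D3, 11.1 and 10 on D7 and 27.3 and 26.5 in D7G (3.22 ± 0.10), and Tubb3, neuronal tubulin, 27.6 and 28.1 CPM on D3, 56.9 and 60.6 on D7 and 122 and 136 in D7G (2.21 ± 0.06). Robo3, an axon guidance receptor, rose by 3.34 ± 0.14. The 3 that fell were Stmn2, a tubulin regulator, with 77.3 and 82.3 CPM on D3 and 28 and 27 in D7G (-1.54 ± 0.08), the proneural factor Neurod1 (-1.0 ± 0.17) and Nefl, a neurofilament (-0.32 ± 0.08, or -0.54 without D7G replicate 1). Prph, described above and also a neuronal filament, fell as well, and Isl1 was not called (-0.25 ± 0.28, adjusted p = 0.443). Neural crest markers split, with 6 higher and 4 lower: Tfap2b (3.59 ± 0.21), Sox9 (3.58 ± 0.17) and Tfap2a (2.81 ± 0.24) rose, and the crest factors Sox10 (-1.88 ± 0.34) and Foxd3 (-1.24 ± 0.24) fell at levels at or under 1.6 CPM on D3. Of 8 tested forebrain and midbrain genes 3 were higher, En1 (2.18 ± 0.12), En2 (1.80 ± 0.08) and Emx2 (1.24 ± 0.27, or 0.78 without D7G replicate 1), which are also used in the hindbrain or limb and trunk. Otx2, Lhx2, Otx1 and Hesx1 were not called and stayed under 3 CPM in all 4 libraries. Otx2, at 0.53 here, ranged from 0.03 to 0.82 over the alternatives. Lhx2, at 0.51 here, was called higher with only these 4 libraries in the fit (0.51) and with the replicate block (0.52). Six3 and Rax were not tested.

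Markers of lateral plate, endoderm and intermediate mesoderm were mostly above D3. In the lateral plate and hindlimb list 7 of 11 were higher and 3 lower (median 0.91). The list summed to 57.2 to 64.0 CPM on D3, 94.9 to 100.9 on D7 and 195 to 206 in D7G. Pitx1, a hindlimb homeobox factor, held 3.03 and 2.87 CPM on D3, 21.6 and 23 on D7 and 48.4 and 41.6 in D7G (3.93 ± 0.11), and Tbx2 1.29 and 1.45 CPM on D3, 1.38 and 1.45 on D7 and 16.5 and 18.6 in D7G (3.68 ± 0.13). Tbx4, the hindlimb T-box factor, fell (-1.52 ± 0.20), Hand1 fell (-2.26 ± 0.52), Gata5 was not called (0.91 ± 0.43, adjusted p = 0.0705) and Tbx5 was not tested. All 9 endoderm markers were higher (median 1.23). They summed to 50.6 to 55.4 CPM on D3, 101.9 to 105.2 on untreated D7 and 116 to 128 in D7G. Afp, α-fetoprotein, held 0.123 and 0.216 CPM on D3 and 6.71 and 2.64 in D7G (4.76 ± 0.48), and Sox17 15.8 and 18.5 CPM on D3 and 35.7 and 28.1 in D7G (0.89 ± 0.10). Ttr (1.99 ± 0.21), Prdm1 (1.72 ± 0.10) and Hnf4a (1.65 ± 0.16) also rose. Intermediate mesoderm genes had 5 rises, such as Six2 (2.74 ± 0.41) and Eya1 (1.84 ± 0.12), and a fall of Wt1 (-3.00 ± 0.20), with Pax8 not called (-0.10 ± 0.42, adjusted p = 0.849).

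Of the endothelial and blood markers, 2 of 9 were higher and 3 lower. Runx1, a blood factor that other mesoderm and neurons also express, held 4.9 and 5.89 CPM on D3 and 46.2 and 53.2 in D7G (3.20 ± 0.12), while Tal1 (-2.13 ± 0.35) and Cdh5 (-1.31 ± 0.32) fell. Tek, Kdr, Gata2 and Etv2 were not called (adjusted p = 0.876, 0.25, 0.124 and 0.0524), and Gata1, of red blood cells, was not tested (8 and 2 counts). Of the node and notochord markers, 4 of 7 were higher, Foxj1 by 1.11 ± 0.18, and 2 were lower, Krt7 (-0.60 ± 0.16, or -0.33 and adjusted p = 0.106 without D3 replicate 2) and Dand5 (-0.54 ± 0.17, adjusted p up to 0.0705 under the alternatives, its call lost without D7G replicate 2). Noto had 15 counts over D3 and 1 over D7G, a ratio of 14.8 (95% interval 2.27 to 622) lower, and Foxd4 was not called (0.55 ± 1.17, adjusted p = 0.702). Skeletal muscle factors were near 0, with at most 3 counts over a group for Myod1, Myf5, Myf6 and Myog. Des fell (-2.44 ± 0.15), and Actc1 and Myh3 were not called (adjusted p = 0.277 and 0.179), though Myh3 was called lower without D3 replicate 1.

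Naive pluripotency genes were below D3 and above D7. Of 12 members 9 were lower, 1 higher and 2 not called (median -0.36), and all 12 were above D7. Nanog held 162 and 156 CPM on D3, 89.3 and 87.1 on D7 and 118 and 104 in D7G (-0.52 ± 0.08), and Esrrb 152 and 158 CPM on D3, 96.9 and 97.9 on D7 and 131 and 119 in D7G (-0.31 ± 0.06). Dppa3 (-1.01 ± 0.11), Fgf4 (-0.67 ± 0.08) and Zfp42 (-0.56 ± 0.09) fell as well, Klf4 rose (0.65 ± 0.07), and Tbx3 (-0.10 ± 0.07, adjusted p = 0.212) and Prdm14 (-0.34 ± 0.17, adjusted p = 0.09) were not called. Their summed level was 765 to 788 CPM on D3, 398 to 483 on D6, 484 to 492 on D7 and 597 to 670 in D7G. Epithelial genes, some of which pluripotent cells also express, had the same order, with sums of 1533 to 1751 CPM on D3, 399 to 443 on D6, 499.7 to 526 on D7 and 755 to 901 in D7G. The part of pluripotent cells in the epithelial result was not tested. Of 12 primed epiblast genes 4 were higher and 6 lower, among them Zic2 (1.54 ± 0.06), Fgf5 (1.64 ± 0.33), Pou3f1 (-1.58 ± 0.17) and Dnmt3b (-1.5 ± 0.04), and Tdgf1 was not called (0.10 ± 0.07, adjusted p = 0.177).

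**Figure D5:**
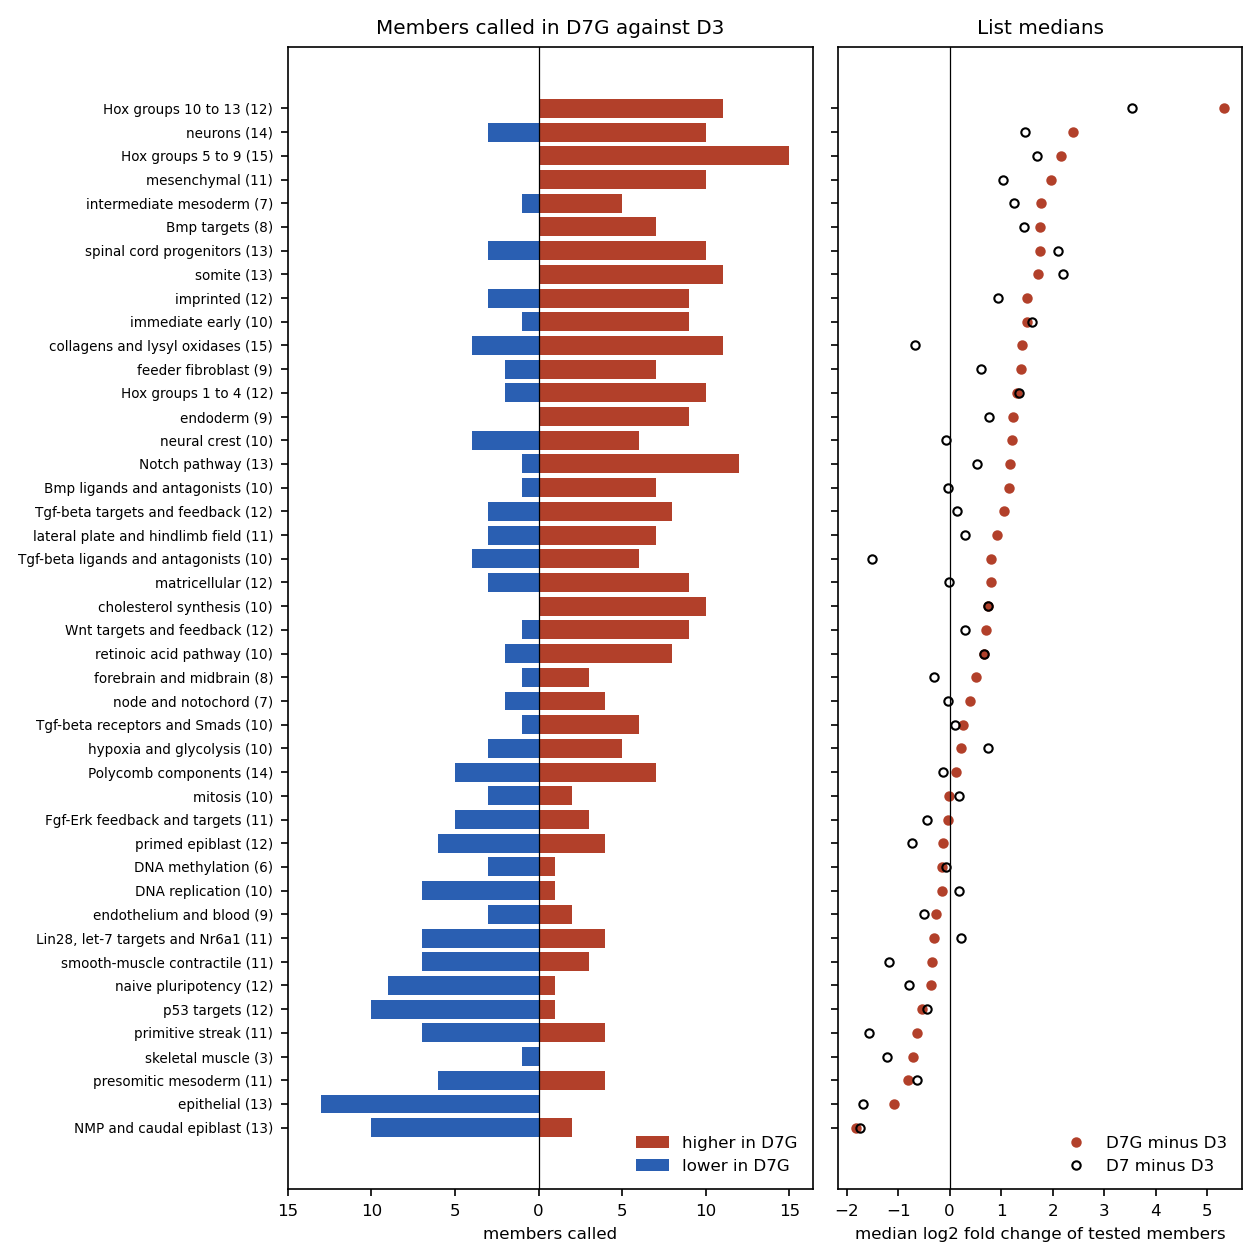
For 44 gene lists (number of tested members in brackets, ordered by median), the members called higher or lower in D7G against D3 (left, bars) and the median log2 fold change of tested members (right) for D7G minus D3 (filled) and D7 minus D3 (open), which share the D3 libraries. The NMP list has the lowest D7G median (-1.81) and Hox groups 10 to 13 the highest (5.32).

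Cell cycle, stress and metabolic genes mostly differed from D3 by less than 2-fold. Against D7, 9 of 10 mitosis, 9 of 10 DNA replication and all 10 hypoxia and glycolysis genes were called lower. In these lists 0 were called higher, where 18.2% of all genes were lower and 22.5% higher. Their D7 minus D3 medians were 0.183, 0.185 and 0.748. The p53 targets (4 higher and 3 lower than D7) and cholesterol genes (2 and 3) went both ways. The counts that follow are against D3. Of 10 mitosis genes 2 were higher, 3 lower and 5 not called (median -0.02): Bub1, Aurka, Ccnb1, Plk1 and Cenpe had adjusted p = 0.269, 0.39, 0.864, 0.279 and 0.094, Ccnb2 fell (-0.66 ± 0.05) and Top2a rose (0.37 ± 0.03). Plk1 and Cenpe were called lower under 4 and 5 of the 14 alternatives, so that 5 members were lower without D3 replicate 1, and 1 was higher without D3 replicate 1, D7G replicate 1 or D7G replicate 2. Of 10 DNA replication genes 7 were lower and 1 higher, all by less than 2-fold, with Mcm5 at -0.44 ± 0.03, Mcm3 at -0.28 ± 0.03, Mcm2 at -0.27 ± 0.03, and Pcna and Cdc6 not called (adjusted p = 0.57 and 0.0828). Cdc6 (-0.11 ± 0.05) was called lower under 7 of the 14 alternatives, with -0.23 and adjusted p = 0.00398 without D3 replicate 1. Of 12 p53 targets 10 were lower (median -0.54), such as Fas (-1.97 ± 0.19), Perp (-1.86 ± 0.07), Bbc3 (-1.07 ± 0.06) and Mdm2 (-0.72 ± 0.04), while Cdkn1a, which arrests the cycle, rose (0.69 ± 0.04), and Sesn1 was not called (0.07 ± 0.06, adjusted p = 0.286). All 10 cholesterol synthesis genes were higher (against 31.9% of all genes called higher), with a median of 0.75, and of 0.74 for D7 minus D3. Hmgcs1 held 504 and 503 CPM on D3, 1346 and 1292 on D7 and 1184 and 1184 in D7G (1.23 ± 0.04), and Insig1 rose by 1.25 ± 0.04. In hypoxia and glycolysis 5 of 10 were higher and 3 lower: Vegfa rose (1.77 ± 0.04), Slc2a1, the glucose transporter, held 906 and 939.7 CPM on D3 and 449 and 502 in D7G (-0.96 ± 0.05), Pdk1 fell (-1.10 ± 0.06), and Pgk1 and Aldoa were not called (adjusted p = 0.345 and 0.365). Pgk1 stood at 0.10 ± 0.09 here and at 0.37 (adjusted p = 2.77e-08) in the second count table.

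Immediate early genes, which respond within minutes to serum, stress or handling, were high in D7G and in untreated D6 and D7. Of 10 members 9 were higher and 1 lower (median 1.5). Fosb held 3.49 and 2 CPM on D3, 143 and 148 on D6, 236 and 272 on D7 and 227 and 199 in D7G (6.27 ± 0.12), and Fos 21.5 and 16.3 CPM on D3, 143 and 144 on D6, 237 and 253 on D7 and 239 and 197 in D7G (3.53 ± 0.09). Jun rose by 2.65 ± 0.09, and Fosl1 fell (-2.28 ± 0.22, or -1.48 in the second count table). Of 12 imprinted genes 9 were higher and 3 lower (median 1.5). Dlk1, a Notch-related ligand, held 3.13 and 3.3 CPM on D3, 63.6 and 70.5 on D7 and 29.5 and 28.9 in D7G (3.18 ± 0.11), Igf2, a growth factor, 147 and 168 CPM on D3, 651 and 659 on D7 and 969 and 1024 in D7G (2.66 ± 0.05), and Peg3, a zinc-finger factor, 328 and 349.5 CPM on D3, 526 and 518 on D7 and 1478 and 1689 in D7G (2.22 ± 0.05). Phlda2 (-3.02 ± 0.11) and the noncoding Meg3 (-2.65 ± 0.12) fell. The neighbours Dlk1 and Meg3 thus went opposite ways, whereas Igf2 and H19 (1.93) both rose. Of 14 Polycomb components 7 were higher and 5 lower (median 0.12): Cbx8 rose (2.21 ± 0.15), Cbx7 (-1.04 ± 0.05), the form of pluripotent cells, and Phf19 (-1.15 ± 0.16) fell, and Pcgf2 and Mtf2 were not called (adjusted p = 0.445 and 0.483). Of 6 DNA methylation genes Tet3 rose (0.58 ± 0.05), Dnmt3l (-0.61 ± 0.07), Uhrf1 (-0.30 ± 0.05) and Tet1 (-0.26 ± 0.04) fell, and Tet2 and Dnmt1 were not called (adjusted p = 0.162 and 0.416).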

How the data were processed

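RNA-seq of 10 mouse libraries was analysed, of which D3 and D7G, 2 libraries each, are compared here. The authors deposited raw counts per gene symbol, which are used throughout, and a second table of raw counts per Ensembl gene, used as an alternative (98.4% of its 55298 genes matched a symbol). The submitters' processing notes name STAR, HISAT2 2.1.0, featureCounts 1.6.3, limma and the build mm10. Their roles, the gene model, the strand setting and the treatment of reads that match several genes are not given in the sources used here.

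Samples were grouped by their labels and matched to the deposited columns by name. In R 4.3.3, edgeR 4.0.16 was fitted with its quasi-likelihood test to all 10 libraries with 1 coefficient a group, TMM factors and the filterByExpr filter on low counts, which left 18818 of 52459 genes. P-values were adjusted by Benjamini-Hochberg over all tested genes, with calls made at adjusted p under 0.05. SE is the absolute log2 fold change divided by the square root of the F statistic. Genes with few counts have ratios of summed counts with exact 95% intervals or, at 0 counts, a bound against a floor of 3 counts over the group, which cover counting error only. The procedure was tested on simulated data. limma 3.58.1 and DESeq2 1.42.0 served as alternatives, beside other scaling factors, filters, the replicate block and leaving out each library. Sequences were read from RefSeq promoter and miRNA tables (GRCm38.p6) and GENCODE vM21.

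Members and gene lists were chosen with earlier results of these data known. Named genes are, of the called genes without overlap and with at least 5 CPM in 1 group, the 15 that rose most and the 15 that fell most, up to 4 called members of each list with the largest change, members not called, Hox genes, a set of progenitor genes, and the 5 most abundant genes level with D3 but at least 4-fold lower on D6. Others were named after their values were seen. Some genes that the rule names are not reported here.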

Additional observations from a re-analysis of the deposited data

How the results depend on the processing

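Under 14 alternatives the number of genes called between D7G and D3 was 10122 (DESeq2) to 12087 (upper-quartile factors), against 11848, and each count of genes higher or lower stayed within 1.5 times its value. Leaving out 1 of the 4 libraries gave 10652 to 11189 calls. Of the calls 50.6% were higher in D7G, and 42.5% with upper-quartile factors, which moved the median of all genes to -0.08. For 316 of the named genes there were 4411 values under the alternatives. Of these values 4304 stayed on their side of the threshold, 110 of them with the other sign but called neither way. The call was lost in 45 and gained in 61, and 1 value was called with the other sign. That was Ccnb1, at -0.13 (adjusted p = 0.00329, edgeR) in the second count table. The cause was not tested. Of 1232 list counts 24 moved by over 1.5 times. Same-numbered libraries of D3 and D7G showed no shared deviation (correlation -0.04). With 2 libraries a group this cannot tell whether the numbers pair the samples. With the replicate number as a block 11920 genes were called, 6043 higher and 5877 lower. At 31078950 counts or more a library, a gene with 0 counts over a group is known only to be under 3 counts.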
